A study of Homo sapiens with 12 samples.

Results

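Forced expression of JUN and activation of YAP are 2 oncogenic states of 1 mammary epithelial cell line, and the 3 JUN EtOH libraries were set against the 3 vector Dox libraries to find the genes that tell the states apart. The 6 libraries were chosen by their labels from 12 in the series, and the 3 vector EtOH libraries served as the common reference level. The cells were MCF10A, a non-tumorigenic line of human mammary epithelium, and every group carried an allele of YAP5SA that doxycycline switches on. JUN EtOH cells expressed JUN from an introduced vector and received ethanol, the solvent, so that YAP5SA was not induced. Vector Dox cells had been infected with the empty vector and received doxycycline at 100 ng/ml, and vector EtOH cells carried the empty vector and received ethanol. The remaining group, JUN Dox, combined both manipulations and entered no comparison. JUN came from a vector that was expressed continuously, whereas YAP5SA was induced only in the hours before harvest, and doxycycline was present in one state and not in the other. The nature of the oncogene, the time it had acted and the drug therefore cannot be told apart between the states. Whether the iYAP5SA line is a single clone was not given in the sources used here.

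JUN is a subunit of AP-1, a dimeric transcription factor of JUN, FOS, ATF and MAF proteins that binds the TGANTCA motif and is a classical mediator of growth factor, stress and cytokine signals. YAP is the transcriptional coactivator at the end of the Hippo kinase cascade, has no DNA-binding domain and acts through the TEAD factors, which bind the GGAATG motif. YAP5SA lacks the serines at which the Hippo kinases inactivate YAP. In epithelia YAP is known for inducing matricellular proteins such as CCN1 and CCN2 and for driving growth, and AP-1 for inducing proteases, cytokines and EGFR ligands.

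Total counts were 21601073 to 22716150 in JUN EtOH, 22455252 to 24635604 in vector Dox and 20321850 to 26310600 in vector EtOH. In a principal component analysis of these 9 libraries, PC1 held 57.5% of the variance and placed vector Dox (-58.4 to -43.9) and JUN EtOH (52.1 to 60.5) on opposite sides of vector EtOH (-8.98 to -2.69). PC2 held 22.6% and set vector EtOH apart from both. Vector Dox replicate 1 stood apart from its group: its chi-square per degree of freedom over genes was 49.3 and 39.4 against the other vector Dox libraries, which differed from each other by 7.82. In JUN EtOH the same measure was 6.74 to 13.1. No 2 libraries of a group agreed within counting noise. Each library was counted as 1 sample because the study describes them as biological replicates.

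The labelled cell type was checked against markers. The summed level of 9 basal mammary markers was 9758 to 10961 CPM (counts scaled to 1e6 per library) in JUN EtOH, 4949 to 6124 in vector Dox and 8458 to 9066 in vector EtOH. The summed level of 9 luminal markers was 708 to 930 CPM in JUN EtOH, 1523 to 1543 in vector Dox and 1282 to 1473 in vector EtOH. KRT8 and KRT18 made up most of it. Among the other luminal markers, ESR1, the estrogen receptor, stood at 0.475 ± 0.0770 CPM in JUN EtOH and 0.541 ± 0.254 in vector Dox (SD, n = 3), and PGR, KRT19 and TFF1 did not pass the filter on low counts. Of 9 immune markers, CD3E, CD3D and LYZ had no count in the 9 libraries and PTPRC at most 3 per library. The summed immune level was nevertheless 87.3 to 103 CPM in JUN EtOH and 23.0 to 24.3 in vector Dox, and it was made up almost wholly of CD68 and CD14. The summed level of 9 fibroblast markers was 127 to 140.4 CPM in JUN EtOH and 128 to 169 in vector Dox, and that of 7 endothelial markers was 1.14 to 1.36 and 1.44 to 1.71. PDGFRA accounted for most of the fibroblast sum, while COL1A2, COL3A1 and THY1 failed the filter. Of the markers that passed it, both immune genes and 1 of 2 endothelial genes, PECAM1, were higher in JUN EtOH, and the other endothelial gene, TEK, was higher in vector Dox, a call that was lost without JUN EtOH replicate 2. In bulk RNA, a change in the share of cells that express a gene and a change in RNA per cell cannot be told apart.

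The manipulated genes were examined first. JUN (Entrez ID 3725, GRCh37 chr1:59242517-59249720, minus strand) was present at 1399, 1374 and 1064 CPM in JUN EtOH (replicates 1 to 3), against 188, 186 and 194 in vector Dox and 55.0, 35.5 and 52.2 in vector EtOH. The groups did not overlap, and the log2 difference of JUN EtOH minus vector Dox was 2.75 ± 0.16 (SE), edgeR adjusted p = 5e-09. JUN was also above the reference in the YAP5SA state, with a log2 change of 1.99 ± 0.16 (SE), edgeR adjusted p = 3.1e-07, so that a high and an intermediate level of JUN RNA were compared. For JUN protein the study reported induction by YAP that was similar to expression from the JUN vector. YAP1 (chr11:101981178-102104155, plus strand) read 249, 243 and 211 CPM in JUN EtOH, 216, 273 and 221 in vector Dox and 191, 171 and 176 in vector EtOH. The states overlapped (log2 difference -0.01 ± 0.16 (SE), edgeR adjusted p = 0.95, 95% interval -0.36 to 0.34), and vector Dox did not pass the test against vector EtOH either (log2 change 0.40 ± 0.16 (SE), edgeR adjusted p = 0.082). Whether reads from the JUN and YAP5SA transgenes were assigned to these genes was not given in the sources used here.

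Of 14775 genes tested, 8055 (54.5%) were called different between the states at an adjusted p under 0.05, 3977 (26.9%) higher in JUN EtOH and 4078 (27.6%) higher in vector Dox. Without vector Dox replicate 1 the counts were 3815 and 3648. The sides were balanced in number but not in size. At an absolute log2 difference of at least 1, 1538 genes (10.4%) were higher in JUN EtOH and 827 (5.60%) in vector Dox. At 2 or more the counts were 512 and 191, and at 4 or more 80 and 31. CPM values of the 2 groups did not overlap for 9079 genes (61.4%), so a lack of overlap is common in this contrast and marks no gene by itself. Relative to vector EtOH, 5766 genes (39.0%) were called in JUN EtOH, 2969 (20.1%) higher and 2797 (18.9%) lower, and 4443 (30.1%) in vector Dox, 2309 (15.6%) higher and 2134 (14.4%) lower. Both comparisons use the same vector EtOH libraries, and their values are therefore only set side by side. The count in JUN EtOH fell whichever library of the 2 groups was left out, to between 3823 (without JUN EtOH replicate 1) and 5231 (without JUN EtOH replicate 3). The plot of log2 difference by level shows the skew, with more red points than blue above an absolute value of 2.

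**Figure D1:**
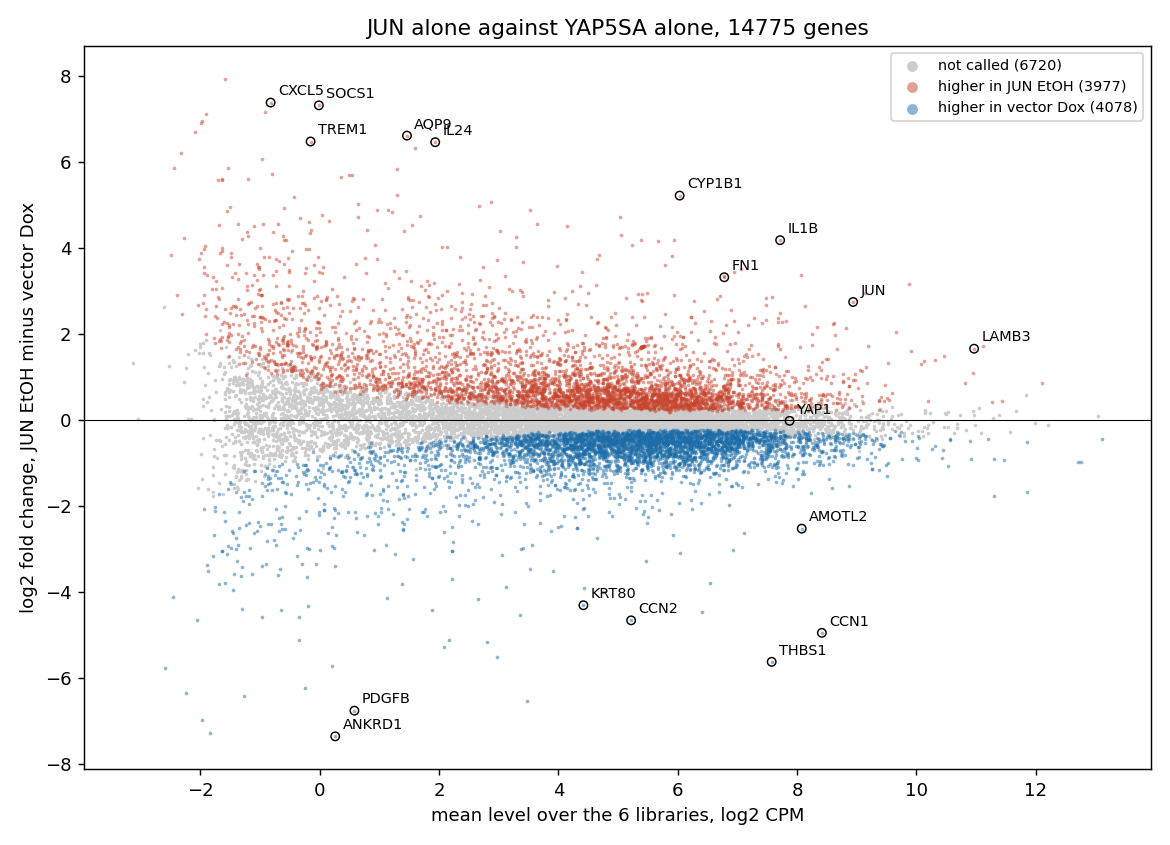
Each point is 1 of the 14775 genes tested; the x axis gives the mean level over the 6 libraries in log2 CPM and the y axis the log2 fold change of JUN EtOH minus vector Dox. Red points (3977) were called higher in JUN EtOH and blue points (4078) higher in vector Dox, circles mark named genes, and values above 4 are more frequent than values below -4 (80 against 31 called genes).

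Classical YAP targets led the 12 called genes with the lowest ratio of JUN EtOH to vector Dox. Values by library are given in the order of replicates 1 to 3 throughout, and for every called gene given by library the JUN EtOH and vector Dox values did not overlap. ANKRD1 (Entrez ID 27063, GRCh37 chr10:92671853-92680844, minus strand), a nuclear ankyrin repeat protein used as a YAP reporter, was at 10.9, 9.37 and 11.4 CPM in vector Dox and 0, 0.126 and 0.0469 in JUN EtOH. The JUN EtOH libraries held at most 3 counts each, so that ANKRD1 was at least 79.1-fold lower there (edgeR adjusted p = 5.6e-10). In vector EtOH it read 0.304, 0.249 and 0.269 CPM. PDGFB, the B chain of platelet-derived growth factor, behaved in the same way, with 10.7, 12.3 and 12.2 CPM in vector Dox against 0.132, 0.0843 and 0.0939 in JUN EtOH, at least 88.3-fold lower with JUN (edgeR adjusted p = 1.2e-08). ANKRD2, a muscle-type relative of ANKRD1, fell from 14.8 ± 2.80 CPM (SD, n = 3) in the reference to 0.968, 0.927 and 1.502 in JUN EtOH and rose to 118, 101.001 and 94.3 in vector Dox.

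The matricellular genes separated the states as widely at far higher read numbers. CCN1 (chr1:86046444-86050272, plus strand), a secreted integrin ligand, was at 1978, 1906 and 1802 CPM in vector Dox and 60.7, 59.2 and 64.5 in JUN EtOH, a log2 difference of -4.95 ± 0.14 (SE), edgeR adjusted p = 6.1e-12. In vector EtOH it was at 71.0, 56.2 and 78.4 CPM, and JUN EtOH was not called against it (log2 change -0.16 ± 0.12 (SE), edgeR adjusted p = 0.32). CCN2 (CTGF) went from 187 ± 18.03 CPM in vector Dox to 7.43 ± 1.38 in JUN EtOH, and THBS1, thrombospondin 1, from 1117, 1467 and 1437 to 25.9, 26.2 and 29.7 CPM with a log2 difference of -5.62 ± 0.18 (SE), edgeR adjusted p = 2.2e-11. THBS1 and CCN2, unlike CCN1, were below the vector EtOH level in JUN EtOH, by log2 changes of -1.99 ± 0.15 and -1.19 ± 0.16 (SE; edgeR adjusted p = 2.3e-07 and 6.2e-05). The remaining genes of the top 12 encode unrelated proteins. The log2 difference was -5.73 ± 0.38 (SE) for MARCHF4, a membrane ubiquitin ligase, -5.51 ± 0.22 for BDNF, a neurotrophin, -5.29 ± 0.18 for GJA5 (connexin 40) and -5.16 ± 0.19 for SERTAD4, and none of these but SERTAD4 was called between JUN EtOH and vector EtOH. For SYT8, a synaptotagmin, the order was another: it was at 55.2, 43.4 and 47.8 CPM in vector Dox and 62.9, 75.9 and 50.3 in vector EtOH, where it was not called between these groups (-0.37 ± 0.16 (SE), edgeR adjusted p = 0.09), and at 1.45, 2.32 and 2.53 in JUN EtOH. CST6 (cystatin E/M, a protease inhibitor) was also lower in JUN EtOH, at 0.616, 0.759 and 0.892 CPM, than in vector EtOH, at 10.3, 15.6 and 13.2. Unlike SYT8, it lay above the vector EtOH values in vector Dox, at 41.4, 16.5 and 20.6 CPM. BDNF and SERTAD4 share genomic span with antisense transcripts, and NFKBIB, CXCL16 and others named with such a limit share span with a neighbour, so that their values are uncertain to that extent because the counting is not stated to use strand.

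The 12 called genes with the highest ratio of JUN EtOH to vector Dox included receptors best known from immune cells and regulators of cytokine signalling. SOCS1 (chr16:11348274-11350061, minus strand), the feedback inhibitor of JAK kinases, was at 8.54, 7.25 and 7.65 CPM in JUN EtOH and 0.0436, 0 and 0.0826 in vector Dox, where no library had more than 3 counts, which makes it at least 60.1-fold higher with JUN (edgeR adjusted p = 7.2e-09). TREM1, an amplifying receptor of myeloid cells, was at 6.998, 4.34 and 5.63 CPM against 0.0872, 0.0451 and 0.0413, at least 43.5-fold higher (edgeR adjusted p = 3.9e-09). Other receptors of this kind were C3AR1, which binds the complement fragment C3a, with 9.15, 8.22 and 8.49 CPM in JUN EtOH against 0.0436, 0.270 and 0.165 in vector Dox, and FCAR, an Fc receptor for IgA, with 15.7, 13.8 and 11.97 against 0.436, 0.451 and 0.207. MEFV, the gene of the inflammasome protein pyrin, differed mainly through vector Dox: it read 5.095, 6.49 and 5.03 CPM in vector EtOH, 9.29, 8.64 and 7.79 in JUN EtOH and 0.131, 0.225 and 0.124 in vector Dox. These genes moved together with the summed immune marker level given above, and the part of other cells in their level was not tested; PTPRC, the defining pan-leukocyte marker, was at 0.0147 ± 0.0254 CPM in JUN EtOH and 0.0588 ± 0.0693 in vector Dox.

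A cytokine and several enzymes completed the JUN side. IL24, a cytokine of the IL-10 family, was at 47.6, 27.3 and 26.2 CPM in JUN EtOH and 0.262, 0.361 and 0.496 in vector Dox, a log2 difference of 6.47 ± 0.33 (SE), edgeR adjusted p = 1.1e-09. CYP1B1, a cytochrome P450 that metabolises estrogens and xenobiotics, reached 427, 382 and 404 CPM against 7.41, 12.4 and 12.5, and vector EtOH lay between them at 124, 107 and 142. HSD17B2, which oxidises estradiol, was higher in JUN EtOH by 5.08 ± 0.20 (SE), ATOH8, a helix-loop-helix factor, by 5.84 ± 0.22 and EPB41L3, a membrane skeleton protein, by 5.66 ± 0.34 on the log2 scale. AQP9, a glycerol and water channel, and ALDH1A2, which makes retinoic acid, had nearly the same counts (26.8, 21.997 and 25.2 and 27.2, 22.2 and 25.3 CPM in JUN EtOH) and overlap in the genome, so that which of them the reads belong to is uncertain. The same holds for IL24 and FCMR and for SOCS1 and RMI2. The plot of single libraries shows 16 genes of both sides.

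**Figure D2:**
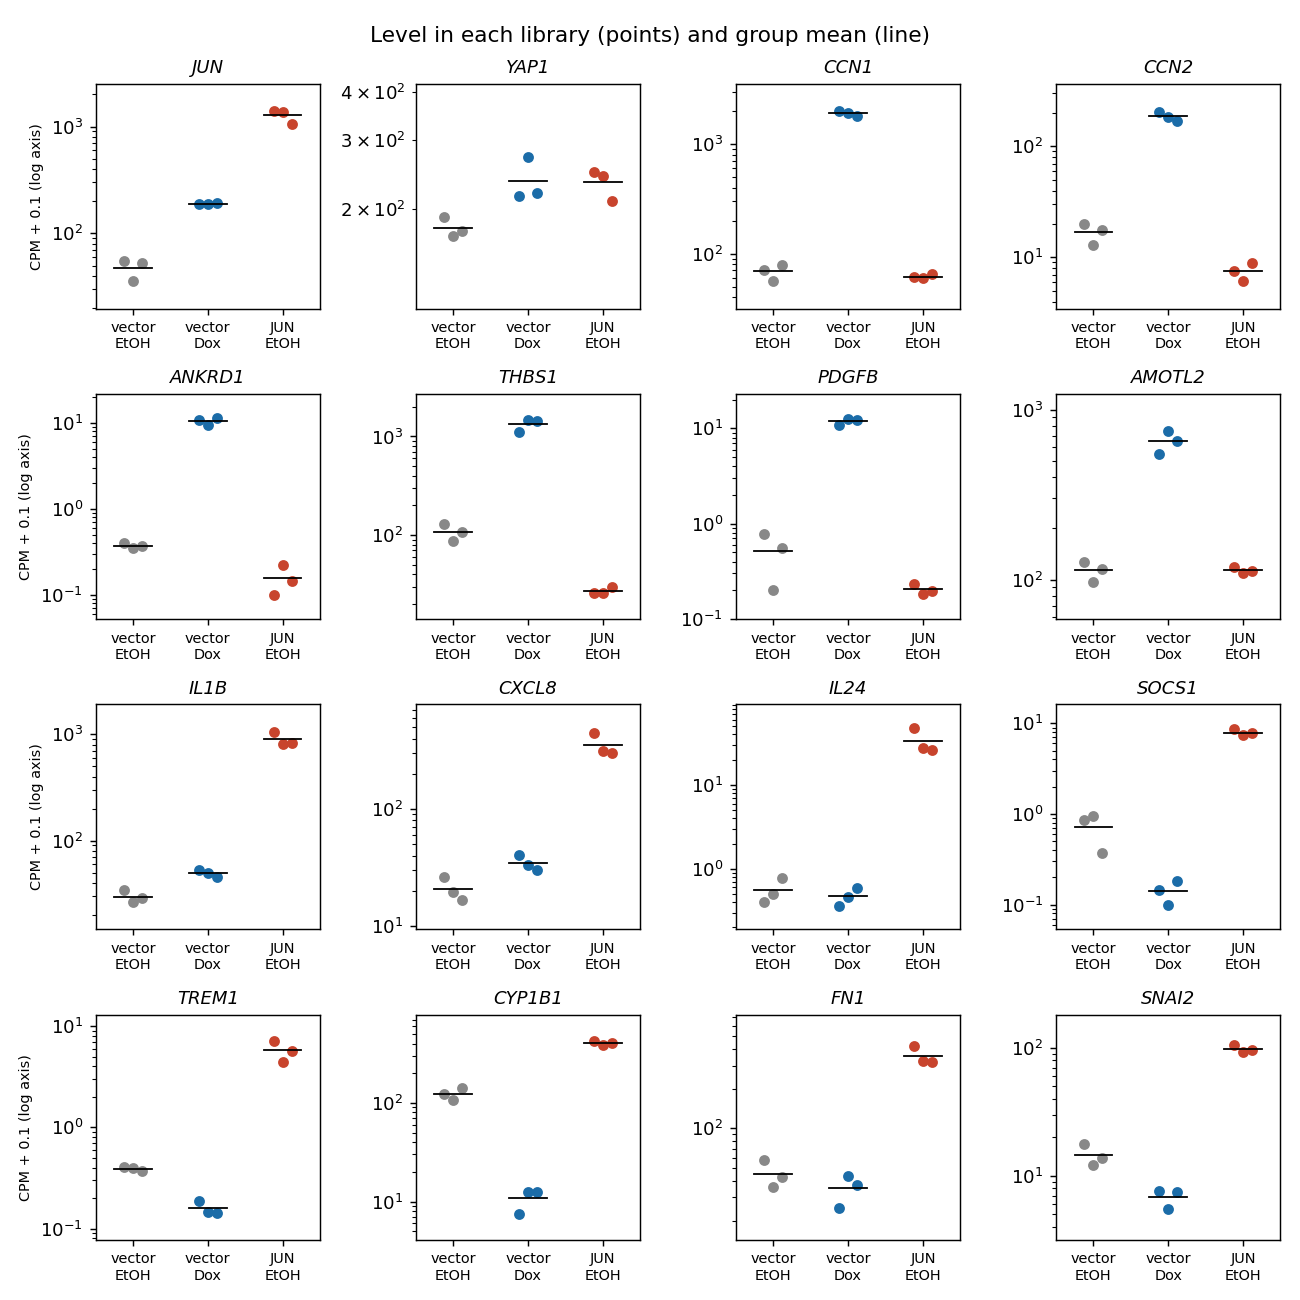
Level of 16 genes in each library, as CPM plus 0.1 on a log axis that differs between panels; points are the 3 libraries of vector EtOH (grey), vector Dox (blue) and JUN EtOH (red), and the line is the group mean. In every panel but YAP1 the vector Dox and JUN EtOH points do not overlap; CCN1 and AMOTL2 in JUN EtOH lie at the vector EtOH level, whereas THBS1 and CCN2 lie under it and CYP1B1 moves away from it in opposite directions.

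Because AP-1 and TEAD factors bind known letters, the 250 bases before the RefSeq start sites (GRCh38.p14) of the 24 top genes were searched for TGANTCA and GGAATG on both strands; RefSeq promoters were at hand for 17 of these genes. Of all 35116 RefSeq promoters, 6.57% held TGANTCA and 11.9% GGAATG, and of the 16734 promoters of genes tested 4.85% and 9.93%. Sites further from the start site were not searched. Among 15 start sites of 8 genes highest in vector Dox, 4 held GGAATG and 1 TGANTCA, and among 14 start sites of 9 genes highest in JUN EtOH the counts were 3 and 1. Several start sites belong to 1 gene, numbers this small were not tested, and a match is a description of letters, not of binding. Windows with a match are printed for 3 genes of the YAP5SA side and 2 of the JUN side, so that both motifs can be seen, with every match in capitals: ANKRD1 (chr10:90921088-90921337, minus strand) with 2 GGAATG and 1 TGANTCA match, CCN2 (chr6:131951373-131951622, minus strand) with 3 GGAATG matches, THBS1 (chr15:39580829-39581078, plus strand) with 1, C3AR1 (chr12:8066360-8066609, minus strand) with 1 TGANTCA match, and TREM1 (chr6:41286683-41286932, minus strand) with 1 GGAATG match. GGAATG also lay in windows not printed, of GJA5 on the YAP5SA side and of AQP9 and EPB41L3 on the JUN side, so that neither motif was found on 1 side alone.
ANKRD1: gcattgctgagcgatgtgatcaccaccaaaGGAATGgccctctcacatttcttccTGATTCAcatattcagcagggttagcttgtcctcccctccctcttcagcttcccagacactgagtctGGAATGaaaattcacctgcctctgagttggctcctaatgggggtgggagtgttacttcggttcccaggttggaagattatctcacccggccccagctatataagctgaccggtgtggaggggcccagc
CCN2: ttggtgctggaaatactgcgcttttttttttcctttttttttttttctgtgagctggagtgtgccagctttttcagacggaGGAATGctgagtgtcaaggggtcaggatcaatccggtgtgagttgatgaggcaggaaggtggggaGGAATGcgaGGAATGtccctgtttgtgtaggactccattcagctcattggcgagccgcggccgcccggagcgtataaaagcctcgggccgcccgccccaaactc
THBS1: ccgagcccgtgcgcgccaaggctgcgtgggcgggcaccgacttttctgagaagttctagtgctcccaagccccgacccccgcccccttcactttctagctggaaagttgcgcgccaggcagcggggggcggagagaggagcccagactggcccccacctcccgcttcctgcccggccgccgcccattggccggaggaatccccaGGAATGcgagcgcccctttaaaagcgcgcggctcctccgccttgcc
C3AR1: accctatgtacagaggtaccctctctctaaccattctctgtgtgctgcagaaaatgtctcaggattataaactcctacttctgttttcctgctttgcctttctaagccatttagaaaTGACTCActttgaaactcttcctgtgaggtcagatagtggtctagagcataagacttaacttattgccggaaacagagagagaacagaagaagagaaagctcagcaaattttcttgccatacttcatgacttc
TREM1: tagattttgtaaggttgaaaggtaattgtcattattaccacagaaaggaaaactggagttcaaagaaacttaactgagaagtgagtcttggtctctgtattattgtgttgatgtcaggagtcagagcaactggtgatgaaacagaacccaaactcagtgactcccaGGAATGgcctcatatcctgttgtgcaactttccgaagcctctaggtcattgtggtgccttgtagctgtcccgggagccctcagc

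Beyond single genes, 47 lists of pathways and markers were counted. A list is read against the shares of all genes given above, 26.9% higher in JUN EtOH and 27.6% higher in vector Dox, and against the median log2 difference of all genes, -0.01. Only members that passed the filter on low counts are counted, and a member that is silent in 1 state passes only through the other. Leaving out vector Dox replicate 1 left the counts of 26 lists as they were, moved a count by 1 in 17 and by 2 or 3 in 4. In 8 lists 1 gene was at the detection floor (3 counts per library) in 1 state, and setting it at its bound moved 1 median, that of antimicrobial secretion, from 2.23 to 2.08.

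**Figure D3:**
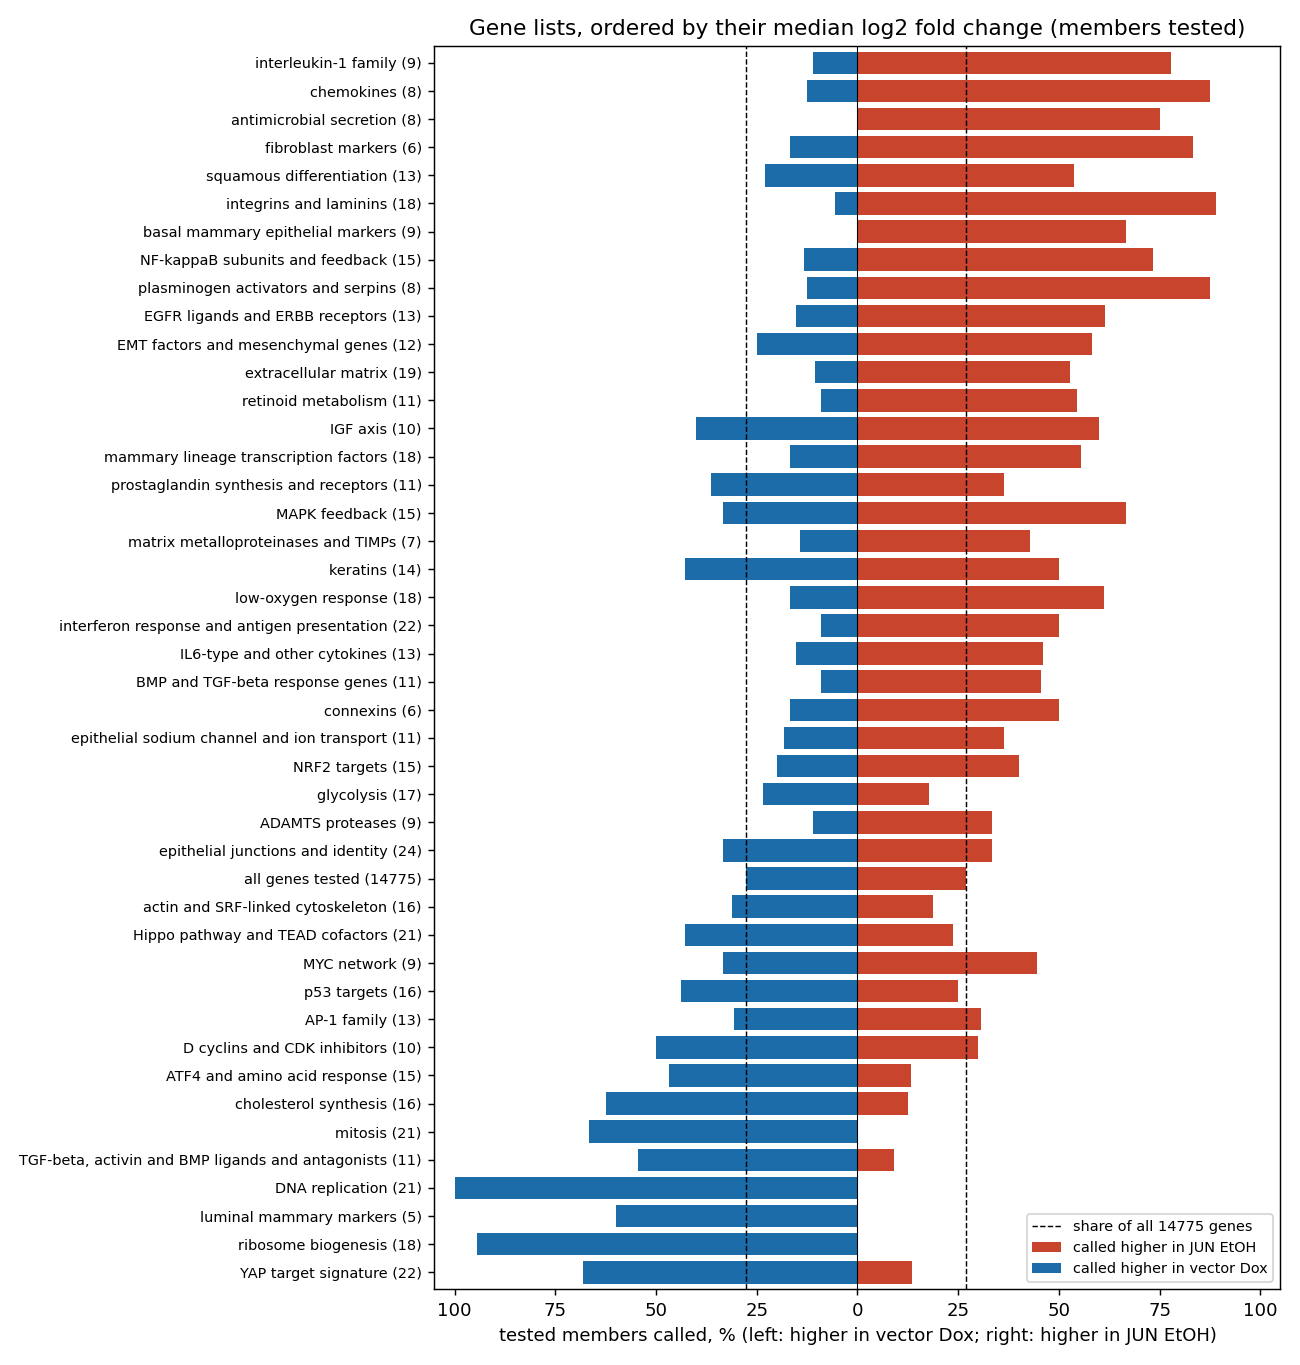
Share of tested members of each gene list called higher in JUN EtOH (red, to the right) or in vector Dox (blue, to the left) in percent, with the number of members tested in parentheses; dashed lines mark the shares of all 14775 genes, 26.9% and 27.6%. Interleukin-1 family, chemokine, integrin and laminin lists lie near the top of the order by median log2 difference, with most members on the JUN side, and DNA replication, ribosome biogenesis and the YAP target signature at the bottom with most members on the YAP5SA side.

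Inflammatory ligands and their receptors were the lists furthest to the JUN side. Of 9 interleukin-1 family members tested, 7 were higher in JUN EtOH and 1 in vector Dox, with a median log2 difference of 3.12. IL1B (chr2:113587328-113594393, minus strand), the main secreted ligand, was at 1060.1, 807 and 837 CPM in JUN EtOH, 52.5, 49.8 and 45.8 in vector Dox and 34.0, 26.2 and 28.8 in vector EtOH, so that the log2 difference between the states was 4.19 ± 0.14 (SE) although IL1B also rose with YAP5SA (log2 change 0.73 ± 0.13 (SE), edgeR adjusted p = 0.00064). IL1A, the second agonist, was at 279 ± 77.7 CPM in JUN EtOH and 83.0 ± 4.09 in vector Dox (SD, n = 3). The brakes of the pathway moved with the agonists: the decoy receptor IL1R2 was at 28.4, 32.6 and 23.4 CPM against 2.22, 2.16 and 1.94, and the receptor antagonist IL1RN at 2.42, 3.75 and 3.52 against 0, 0.451 and 0.330. The signalling receptor IL1R1 was higher by 3.12 ± 0.17 (SE) on the log2 scale, while its accessory chain IL1RAP was at 25.9 ± 4.36 and 23.5 ± 1.55 CPM and was not called (0.14 ± 0.15 (SE), edgeR adjusted p = 0.44). IL18 went the other way, with 263, 187 and 204 CPM in vector Dox and 69.1, 85.3 and 77.4 in JUN EtOH. IL1RL1 and IL18R1, receptors of the same family, were both higher in JUN EtOH but share genomic span and are uncertain as single genes.

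Chemokines, among them several that attract neutrophils, followed the same pattern. Of 8 tested chemokines, 7 were higher in JUN EtOH and 1, CXCL16, in vector Dox, with a median of 2.71. CXCL8 (interleukin-8) was at 443, 314 and 299 CPM in JUN EtOH and 40.1, 33.4 and 30.1 in vector Dox (3.35 ± 0.20 (SE), edgeR adjusted p = 4.3e-09), and CXCL3 at 209.8, 141 and 109 against 11.7, 6.44 and 5.16. CXCL5 had no count in vector EtOH, at most 3 per library in vector Dox and 5.15, 2.49 and 2.35 CPM in JUN EtOH, at least 25.6-fold above vector Dox. CXCL2 was at 99.5, 72.8 and 57.8 CPM in JUN EtOH, 13.7, 6.49 and 5.87 in vector Dox and 9.73, 7.98 and 5.47 in vector EtOH, and vector Dox was not called against vector EtOH (log2 change 0.16 ± 0.34 (SE), edgeR adjusted p = 0.76). Replicate 1 had the highest level of IL1B, CXCL8, CXCL3 and CXCL2 in its group, in JUN EtOH, vector Dox and vector EtOH alike.

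The wider cytokine list was mixed. Of 13 tested members, 6 were higher in JUN EtOH and 2 in vector Dox. CSF3 (G-CSF), the growth factor of neutrophils, was at 1074, 837 and 733 CPM in JUN EtOH against 113, 74.8 and 65.8 in vector Dox (3.38 ± 0.22 (SE), edgeR adjusted p = 1.6e-08), and OSMR, the oncostatin M receptor, at 239 ± 43.2 against 86.1 ± 13.1. IL6 itself was low and lay on the YAP5SA side, at 3.05, 2.43 and 1.69 CPM in vector Dox and 0.528, 0.379 and 0.563 in JUN EtOH, with the limit that it shares span with STEAP1B. IL7R was the member furthest to that side, at 30.9, 45.2 and 38.0 CPM against 3.61, 3.83 and 2.91. LIF did not tell the states apart, with 38.0 ± 11.6 CPM in JUN EtOH and 44.3 ± 5.38 in vector Dox (-0.22 ± 0.23 (SE), edgeR adjusted p = 0.44).

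Genes of the NF-kappaB pathway, which is switched on by interleukin-1 and feeds back on itself, were called higher in JUN EtOH in 11 of 15 cases and lower in 2. The subunits RELA and NFKB2 were not called (log2 differences 0.14 ± 0.16 and 0.09 ± 0.10, SE). TNIP3, which binds the inhibitor A20, was at 28.1, 22.7 and 19.4 CPM in JUN EtOH and 4.14, 4.01 and 6.07 in vector Dox. BIRC3, an anti-apoptotic ligase, was at 412, 438 and 352 CPM against 65.8, 88.6 and 85.4. BCL3, a nuclear IkappaB protein, was at 50.1, 43.1 and 40.4 CPM in vector EtOH, 60.0, 50.4 and 52.99 in JUN EtOH and 9.77, 13.0 and 11.4 in vector Dox: the separation came from a low level with YAP5SA. The inhibitors NFKBIB and NFKBIE were higher in vector Dox (log2 differences -0.79 ± 0.16 and -0.52 ± 0.13, SE).

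Secreted antimicrobial proteins of epithelia were higher in JUN EtOH in 6 of 8 tested cases and lower in none. The alarmins S100A8 and S100A9 were at 237, 299 and 174 and 529, 626 and 428 CPM in JUN EtOH against 25.7, 14.7 and 9.67 and 93.0, 68.8 and 54.6 in vector Dox. They varied within groups, with S100A8 at 53.9, 57.0 and 21.1 CPM in vector EtOH. LCN2 (lipocalin 2) was steadier, at 14.9, 15.6 and 17.8 CPM in JUN EtOH, 0.916, 1.31 and 0.744 in vector Dox and 1.03, 1.25 and 0.718 in vector EtOH. SLPI and PI3, secreted elastase inhibitors, were not called (log2 differences 0.05 ± 0.21 and 0.08 ± 0.20, SE).

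Ligands of the EGF receptor lay on the JUN side. Of 13 tested ligands and receptors, 8 were higher in JUN EtOH and 2 in vector Dox, with a median of 1.06. EREG (epiregulin) was at 111, 90.4 and 74.9 CPM in JUN EtOH, 7.37, 6.49 and 6.65 in vector Dox and 18.6, 14.8 and 12.9 in vector EtOH. EPGN (epigen) was at 386, 285 and 270.3 CPM against 64.0, 70.5 and 66.5 in vector Dox, and HBEGF was at 46.8, 33.2 and 30.2 against 11.9, 9.10 and 11.9. NRG1 (neuregulin 1), a ligand of ERBB3 and ERBB4, was the reverse, at 21.98, 28.3 and 28.0 CPM in vector Dox and 1.58, 1.35 and 1.41 in JUN EtOH (-4.17 ± 0.18 (SE), edgeR adjusted p = 1.7e-10), and its receptor ERBB3 was higher in vector Dox as well (log2 difference -1.06 ± 0.16, SE). NRG2, a related ligand, was on the JUN side (2.14 ± 0.27). EGFR and ERBB2 themselves were not called (95% intervals -0.66 to 0.49 and 0.01 to 0.40).

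Feedback inhibitors of the MAP kinase pathway, which EGF receptors drive, moved in both directions: 10 of 15 were higher in JUN EtOH and 5 in vector Dox, so that each tested member was called. DUSP6, an ERK phosphatase, was at 99.9, 94.1 and 88.0 CPM in JUN EtOH and 26.8, 33.4 and 27.7 in vector Dox, and SPRED3, a RAF inhibitor, at 12.02, 9.14 and 10.0 against 0.698, 1.44 and 1.36. DUSP5, another ERK phosphatase, was opposite, at 91.4, 84.4 and 78.2 CPM in vector Dox against 39.6, 34.3 and 27.3, and so were DUSP8 (-2.42 ± 0.33, SE) and SPRY1 (-2.11 ± 0.19).

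**Figure D4:**
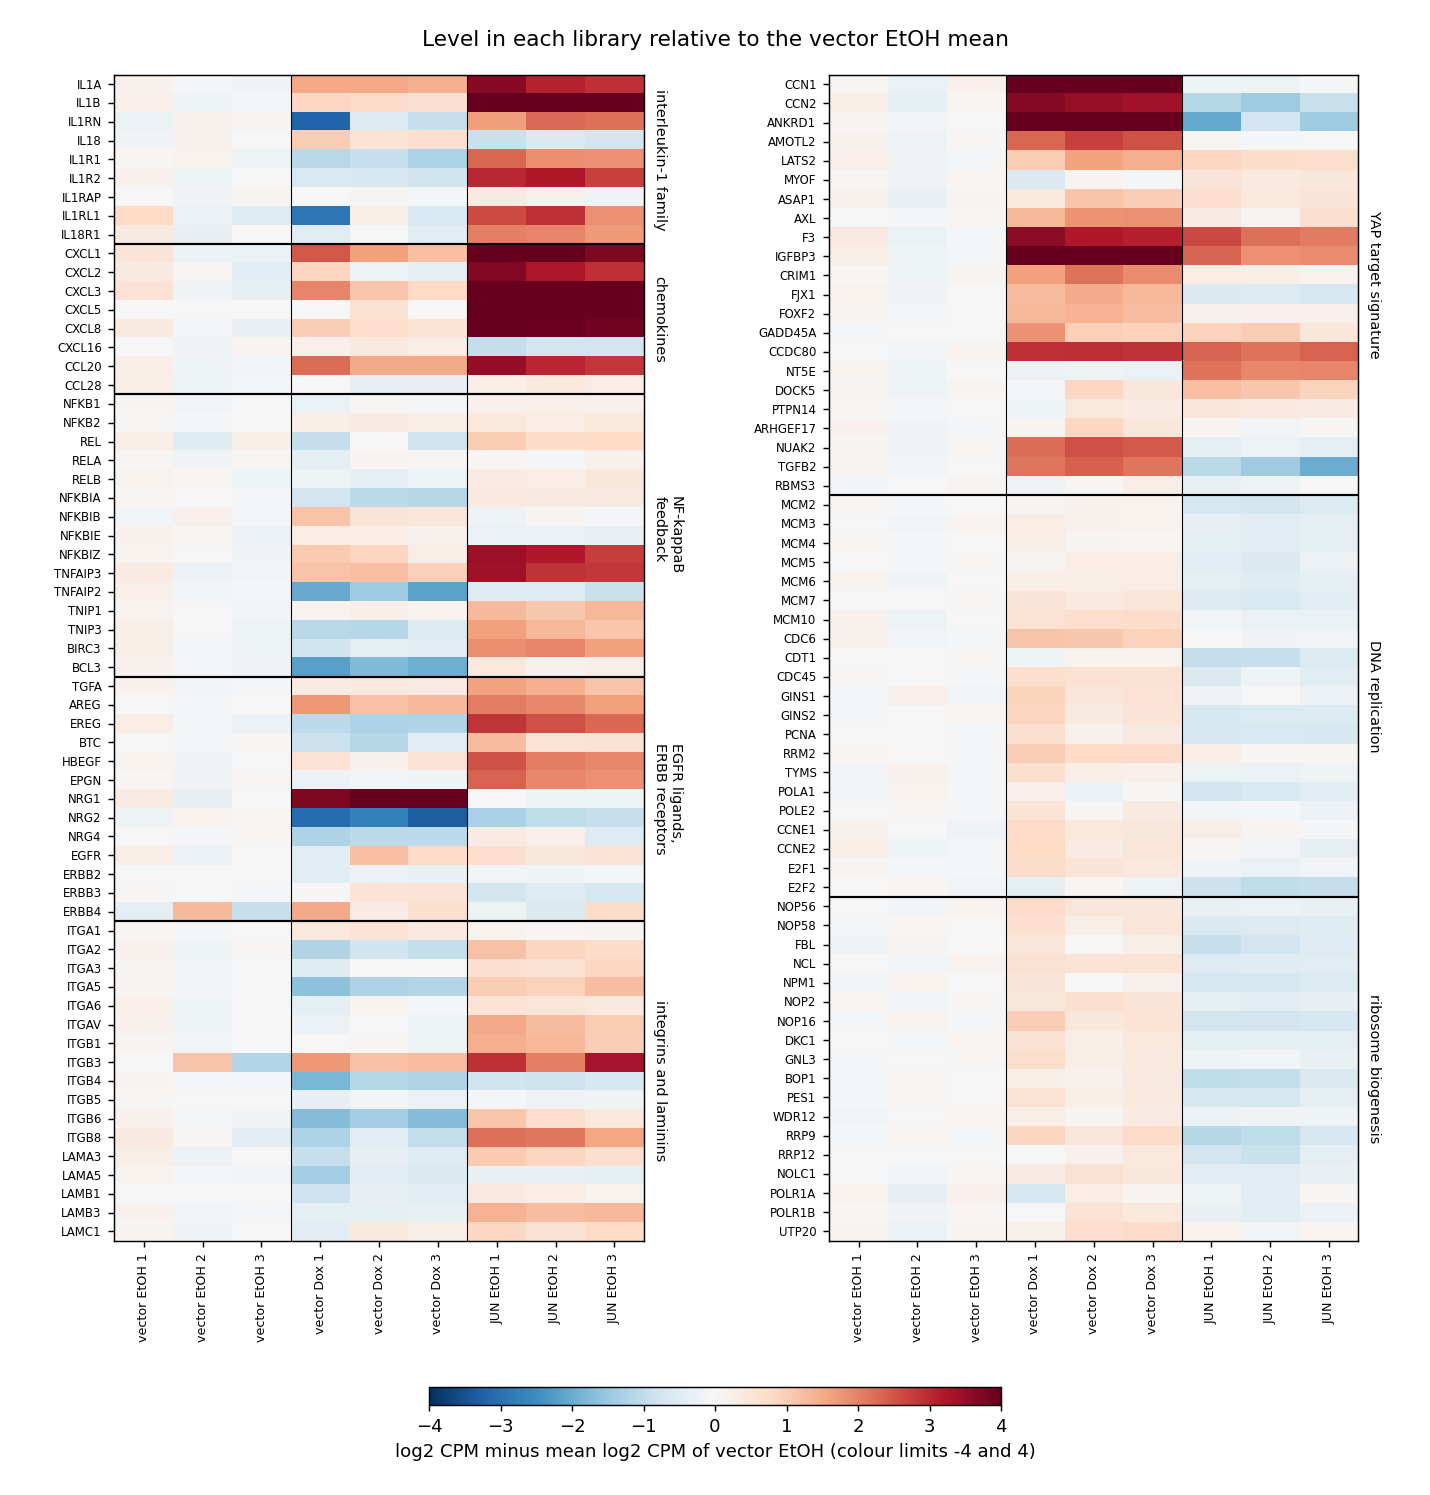
Log2 CPM of list members in the 9 libraries, each minus the mean of the 3 vector EtOH libraries; colours run from -4 (blue) to 4 (red), values beyond are drawn at the limit, and columns are the 3 libraries of vector EtOH, vector Dox and JUN EtOH. In JUN EtOH most interleukin-1, chemokine, integrin and laminin genes are red and DNA replication and ribosome biogenesis genes pale blue, while in vector Dox the YAP target signature holds the strongest red.

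Integrins and laminins, through which epithelia adhere to the basement membrane, were mostly higher with JUN. Of 18 integrin and laminin genes tested, 16 (10 of them by at least 1 log2 unit) were higher in JUN EtOH and 1 in vector Dox. Relative to vector EtOH, 13 were higher and 1 lower in JUN EtOH, and 1 higher and 9 lower in vector Dox; the single calls became 2 in each case without vector Dox replicate 1. LAMB3, a chain of a laminin that anchors epithelia to the basement membrane, was at 3768, 3384 and 3546 CPM in JUN EtOH against 1088, 1122 and 1163 in vector Dox, and LAMA3, another laminin chain, at 592 ± 74.6 against 219 ± 44.1 (SD, n = 3). ITGA5, the fibronectin receptor chain, was at 457, 433 and 529 CPM in JUN EtOH, 243, 212 and 225 in vector EtOH and 73.3, 96.9 and 101.2 in vector Dox. ITGB8 and ITGB6, chains of integrins that activate latent TGF-beta, were higher by 2.84 ± 0.26 and 2.40 ± 0.20 log2 units (SE), and ITGA2, a collagen receptor chain, by 1.92 ± 0.15. ITGA1, which shares span with PELO, was the 1 member higher in vector Dox (log2 difference -0.35 ± 0.08, SE), and ITGB5 was not called (0.12 ± 0.09).

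Matrix proteins followed in 10 of 19 tested cases, and 2, THBS1 and COL8A1, were higher in vector Dox. FN1 (fibronectin) was at 421, 323 and 317 CPM in JUN EtOH, 24.6, 43.8 and 37.3 in vector Dox and 57.1, 35.6 and 42.9 in vector EtOH (3.33 ± 0.22 (SE), edgeR adjusted p = 2e-08 between the states). TNC (tenascin C) was at 61.6, 53.4 and 45.4 CPM against 4.88, 9.01 and 6.20 in vector Dox, FBN1 (fibrillin 1) at 21.8, 19.7 and 21.0 against 1.96, 2.48 and 2.77 and POSTN (periostin) at 15.5, 10.2 and 15.1 against 0.567, 0.856 and 0.330. COL8A1 was opposite, at 157, 242 and 184 CPM in vector Dox and 23.8, 24.2 and 20.3 in JUN EtOH. The main collagen IV chains were not called, with COL4A1 at 85.2 ± 5.33 and 92.4 ± 8.29 CPM (SD, n = 3). Of 6 fibroblast markers tested, 5 were higher in JUN EtOH, among them DCN and LUM by 2.49 ± 0.32 and 3.07 ± 0.29 log2 units (SE), and 1, PDGFRA, was lower; their part in the matrix values was not tested.

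Of 8 tested genes of the plasminogen activators and their inhibitors 7 were higher in JUN EtOH, whereas MMP and ADAMTS proteases were divided. PLAU (urokinase) was at 132, 115 and 88.9 CPM in JUN EtOH against 21.0, 14.1 and 13.5 in vector Dox, with span shared with C10orf55. PLAT, the tissue activator, was higher by 1.75 ± 0.12 log2 units (SE) and SERPINB2, an inhibitor of both activators, by 3.81 ± 0.18. SERPINE2, another inhibitor, was the 1 member higher in vector Dox, at 19.9, 16.1 and 16.2 CPM against 4.31, 3.67 and 3.52. MMP14, a membrane-bound collagenase, was at 567, 489 and 459 CPM in JUN EtOH, 111, 104 and 89.6 in vector Dox and 100.7, 102 and 102 in vector EtOH. Its substrate MMP2 (gelatinase A) was at 6.95, 7.21 and 6.85 CPM against 0.174, 0.270 and 0.330 in vector Dox. The inhibitor TIMP1, which shares span with SYN1, was lower in JUN EtOH (387, 373 and 485 CPM) than in vector Dox (966, 787 and 965). Of 7 MMP and TIMP genes 3 were higher in JUN EtOH and 1 lower, and of 9 ADAMTS genes 3 and 1, beside 26.9% and 27.6% of all genes. The ADAMTS gene that was lower, ADAMTS1, an aggrecanase, was at 16.0, 17.98 and 15.5 CPM in vector Dox against 1.72, 0.716 and 1.41.

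Basal markers were higher in JUN EtOH in 6 of 9 cases and lower in none, with a median of 1.30, and luminal markers were higher in vector Dox in 3 of 5 and in JUN EtOH in none. Of 14 keratins 7 were higher in JUN EtOH and 6 in vector Dox. KRT14, a basal keratin, was at 372, 548 and 523 CPM in JUN EtOH, 75.1, 65.5 and 59.4 in vector Dox and 273, 198 and 156 in vector EtOH, and TP63, the master regulator of basal epithelia, at 28.3, 30.0 and 23.9, 5.36, 7.03 and 5.37 and 15.7, 13.6 and 13.5. The luminal pair KRT8 and KRT18 was at 419.9 ± 66.0 and 342 ± 56.7 CPM in JUN EtOH against 789 ± 12.9 and 706 ± 14.3 in vector Dox, where neither was called against vector EtOH. KRT80 showed the widest keratin difference, at 90.2, 94.3 and 99.3 CPM in vector Dox and 5.02, 3.83 and 5.54 in JUN EtOH (-4.30 ± 0.17 (SE), edgeR adjusted p = 7.2e-11). KRT5, the partner of KRT14, was not called (0.22 ± 0.17 (SE), edgeR adjusted p = 0.28). KRT8 and KRT18, and KRT7, KRT81 and KRT86, have overlapping spans or near-identical sequence and are uncertain as single genes.

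Junction genes were divided: 8 of 24 were higher in JUN EtOH and 8 in vector Dox, with a median of 0.00. When the list was grouped by junction type, which was done after its values were seen, 7 of 9 desmosomal genes were higher in JUN EtOH and 1, PKP2, was lower, and of 6 tight junction genes 4 were higher in vector Dox and none in JUN EtOH. DSG3 was at 90.7, 99.3 and 84.9 CPM in JUN EtOH against 20.5, 25.7 and 26.3 in vector Dox, and DSC2, DSP and JUP were higher by 1.45 ± 0.15, 1.14 ± 0.21 and 1.09 ± 0.19 log2 units (SE). On the other side, CLDN1, a tight junction claudin, was at 63.4, 67.6 and 65.1 CPM in vector Dox against 20.2, 18.7 and 16.5 and EPCAM, an epithelial surface adhesion protein, at 191, 141 and 156 against 40.7, 43.6 and 44.9. DSG3, DSP and JUP in JUN EtOH did not differ from vector EtOH by the test (log2 changes -0.05 ± 0.12, 0.28 ± 0.20 and 0.15 ± 0.18), whereas EPCAM did (-1.76 ± 0.12 (SE), edgeR adjusted p = 5.8e-08). CDH1 (E-cadherin) was at 120.2 ± 5.22 CPM in JUN EtOH and 129 ± 15.5 in vector Dox and was not called (-0.10 ± 0.12 (SE), edgeR adjusted p = 0.48).

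Of 12 genes of epithelial to mesenchymal transition 7 were higher with JUN and 3 with YAP5SA. SNAI2 (SLUG) was at 104, 92.2 and 95.9 CPM in JUN EtOH, 7.46, 5.41 and 7.39 in vector Dox and 17.6, 12.2 and 13.8 in vector EtOH. ZEB2 was at 26.9, 21.7 and 19.2 CPM against 1.35, 2.12 and 2.27 in vector Dox (3.56 ± 0.21 (SE), edgeR adjusted p = 5e-09), ZEB1 higher by 1.53 ± 0.13 (SE) and VIM by 1.62 ± 0.16. SNAI1 was the reverse, at 2.83, 3.34 and 2.68 CPM in vector Dox and 1.06, 0.716 and 0.939 in JUN EtOH, and CDH2 (N-cadherin) was not called (-0.01 ± 0.12 (SE), edgeR adjusted p = 0.96).

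Among lineage factors, 10 of 18 were higher in JUN EtOH and 3 in vector Dox. The epithelial ETS factors ELF3 and EHF were among them, with ELF3 at 17.8, 15.1 and 14.0 CPM in JUN EtOH against 0.567, 0.676 and 0.496 in vector Dox and 5.13, 8.68 and 5.29 in vector EtOH. EHF was at 41.7, 44.5 and 40.2, 1.96, 2.79 and 1.82 and 22.4, 26.5 and 20.2 CPM in the same order. HES1, a Notch target, was at 14.2, 15.2 and 15.3 CPM in JUN EtOH and 2.92, 2.39 and 2.93 in vector Dox, again with a vector EtOH level (19.8, 20.3 and 19.3) nearer to that of JUN EtOH. SOX9, TFAP2C and GATA3 were the 3 on the other side (log2 differences -2.36 ± 0.20, -1.39 ± 0.11 and -0.84 ± 0.13, SE).

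The YAP target genes lay on the other side. In a signature of 22 YAP target genes, 15 were higher in vector Dox, 11 of them by at least 1 log2 unit, and 3 were higher in JUN EtOH, with a median of -1.06. Relative to vector EtOH, 17 rose and none fell in vector Dox, while 10 rose (6 without JUN EtOH replicate 1) and 4 fell in JUN EtOH. IGFBP3, an IGF-binding protein, was at 102, 76.2 and 73.8 CPM in vector Dox against 6.91, 4.85 and 5.07 in JUN EtOH, with vector EtOH at 1.56, 1.15 and 1.21, so that it rose in both states and far more with YAP5SA. AMOTL2, an angiomotin that binds YAP, was at 548, 744 and 657 CPM in vector Dox and 119, 109 and 112 in JUN EtOH against 126, 97.2 and 116 in vector EtOH. NT5E (CD73), MYOF and DOCK5 were the 3 members higher in JUN EtOH, NT5E at 410.2, 352 and 355 CPM against 76.3, 79.9 and 76.1.

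A larger list of YAP-induced genes came from the study, which had drawn it from a separate experiment. It repeats some gene IDs, and its 407 distinct IDs were each counted once. Of 401 tested, 267 lay on the YAP5SA side and 51 on the JUN side, 125 and 24 of them by at least 1 log2 unit, with a median of -0.65. Relative to vector EtOH, 268 rose and 8 fell in vector Dox, and 119 rose and 102 fell in JUN EtOH. A further 8 genes had been picked for display on these same samples and are no independent evidence. They divided into 6 higher in vector Dox (CCN1, CCN2, THBS1, ANKRD1, ANKRD2 and AMOTL2) and 2 higher in JUN EtOH (IL1B and PLAU).

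Genes of the Hippo pathway itself were higher in vector Dox in 9 of 21 cases. They included regulators of YAP: NF2 (merlin) was at 276, 372 and 337 CPM in vector Dox against 134, 132 and 131 in JUN EtOH and 127, 131 and 130.4 in vector EtOH, and AJUBA, a LIM protein that holds back the LATS kinases, at 244, 296 and 271 CPM in vector Dox against 95.1, 102 and 94.6 in JUN EtOH. TEAD4, a DNA-binding partner of YAP, was at 48.6, 57.1 and 52.8 CPM in vector Dox against 21.3, 20.9 and 25.6 in JUN EtOH. WWTR1 (TAZ), the paralog of YAP, was opposite, at 96.3, 93.1 and 90.8 CPM in JUN EtOH and 41.5, 48.6 and 45.6 in vector Dox. The members called higher in JUN EtOH numbered 5, and 2 without either vector Dox replicate 1 or JUN EtOH replicate 1.

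The AP-1 family did not follow JUN as a block: besides JUN itself, FOS, JUNB and FOSL2 were higher in JUN EtOH, 4 of 13 tested members were higher in vector Dox and the others were not called. FOS was at 15.8, 18.5 and 16.2 CPM in JUN EtOH, 2.75, 4.15 and 2.77 in vector Dox and 22.5, 26.0 and 18.4 in vector EtOH, and JUNB at 120.4, 111 and 110.1, 50.5, 48.4 and 44.2 and 132, 124 and 109.8 in the same order. For both genes JUN EtOH did not pass the test against the reference (log2 changes -0.40 ± 0.18 and -0.10 ± 0.11, SE), so that the separation came from low levels in vector Dox. BATF3, ATF3 and MAFK, other dimer partners, were higher in vector Dox (log2 differences -1.33 ± 0.20, -1.11 ± 0.23 and -0.74 ± 0.09, SE), with the limit that MAFK shares span with TMEM184A.

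Ligands of the TGF-beta family and their antagonists, counted as 1 list, were higher in vector Dox in 6 of 11 cases, of which FSTL3 is an antagonist, and in JUN EtOH in 1, BMP2. TGFB2 was at 8.76, 10.4 and 8.88 CPM in vector Dox against 0.880, 0.674 and 0.422 in JUN EtOH, with vector EtOH at 2.09, 1.80 and 1.93. INHBA, the activin A subunit, was at 33.7, 34.2 and 40.3 CPM, 6.29, 6.62 and 5.07 and 2.21, 1.40 and 1.97 in the same groups, with an antisense gene in its span. Of 11 response genes 5 were higher in JUN EtOH and 1 in vector Dox. TGFBI, a TGF-beta induced matrix protein, was at 4199, 3515 and 4391 CPM in JUN EtOH against 1049.6, 1189 and 1438 in vector Dox. ID1, a BMP target, was at 263, 280.3 and 247 CPM in JUN EtOH, 264, 313 and 248 in vector EtOH and 106, 77.3 and 67.7 in vector Dox, whereas its relative ID3 was at 74.7, 45.6 and 52.6 CPM in vector Dox and 17.1, 15.8 and 16.4 in JUN EtOH.

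Proliferation genes lay on the YAP5SA side. Of 21 DNA replication genes tested, 21 were higher in vector Dox and none in JUN EtOH (19 without vector Dox replicate 1), but only 4 of them by 1 log2 unit or more, and the median was -0.74. Relative to vector EtOH, 13 rose in vector Dox and 12 fell in JUN EtOH. CDC6, which loads the replicative helicase, was at 117, 112 and 101.2 CPM in vector Dox against 52.2, 47.9 and 49.4 in JUN EtOH, with vector EtOH at 59.2, 48.6 and 51.7. PCNA, the sliding clamp, was at 273, 198 and 221, 109, 114 and 112 and 177, 175 and 169.9 CPM, with vector Dox replicate 1 the highest of its group. Of 21 mitotic genes 14 were higher in vector Dox and none in JUN EtOH; CDC20, the activator of the anaphase-promoting complex, was at 366, 349.7 and 349 CPM against 120.1, 117 and 152 in JUN EtOH, while TOP2A, CENPF and KIF11 were not called (log2 differences 0.02 ± 0.12, 0.06 ± 0.17 and -0.06 ± 0.10, SE).

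Ribosome biogenesis genes behaved alike, with 17 of 18 higher in vector Dox, none in JUN EtOH and a median of -0.88. NCL (nucleolin) was at 2163, 2102 and 2149.6 CPM in vector Dox against 1009.7, 1020.1 and 1057 in JUN EtOH, with vector EtOH at 1427, 1315 and 1562, and RRP9, a component of the U3 snoRNP, at 72.3, 56.0 and 68.9, 18.4, 19.7 and 24.9 and 39.0, 42.6 and 39.0. Relative to vector EtOH, 11 rose in vector Dox and 12 fell in JUN EtOH. MYC, a known driver of this class, was at 381, 438 and 391 CPM in JUN EtOH and 527, 593 and 489 in vector Dox (-0.41 ± 0.11 (SE), edgeR adjusted p = 0.0045), and in vector Dox it did not differ from vector EtOH by the test (-0.00 ± 0.11 (SE), edgeR adjusted p = 0.98). Of 9 MYC network genes 4 were higher in JUN EtOH, each an antagonist of MYC, and 3 in vector Dox, namely MYC, MLX and MXD3, itself an antagonist. MLX shares span with PSMC3IP and MXD3 with PRELID1, so that both are uncertain to that extent. MXD3 lost its call without vector Dox replicate 1, at a log2 difference of -0.34 (edgeR adjusted p = 0.0597). MXD4, another antagonist, was at 74.7, 84.0 and 80.0 CPM in JUN EtOH and 23.2, 22.6 and 25.8 in vector Dox.

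**Figure D5:**
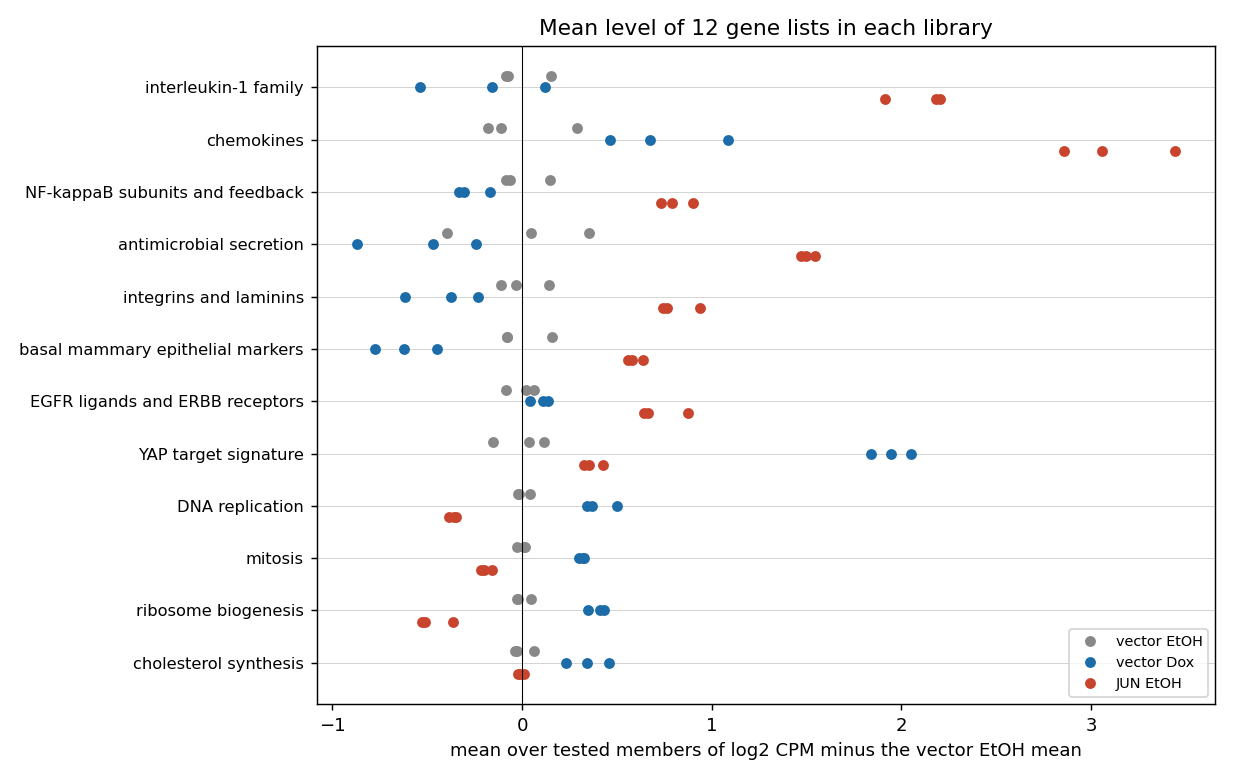
Mean over tested members of log2 CPM minus the vector EtOH mean, for 12 gene lists in each of the 3 vector EtOH (grey), vector Dox (blue) and JUN EtOH (red) libraries. DNA replication lies between 0.34 and 0.50 in vector Dox and between -0.39 and -0.35 in JUN EtOH. Ribosome biogenesis and mitosis show the same order, and integrin and laminin genes the opposite one. Interleukin-1 family genes are highest in JUN EtOH, while their vector Dox values overlap those of vector EtOH.

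Of 10 genes of cell cycle entry 5 were higher in vector Dox and 3 in JUN EtOH. CCND1 (cyclin D1) was at 583, 731 and 679 CPM in vector Dox against 229.9, 204 and 233 in JUN EtOH and 269, 208 and 249 in vector EtOH, and CCND2 was higher in vector Dox as well (log2 difference -1.24 ± 0.15, SE). The CDK inhibitors CDKN1C and CDKN2C were higher in JUN EtOH by 1.36 ± 0.34 and 0.60 ± 0.11 log2 units (SE), but CDKN1A (p21) was higher in vector Dox (log2 difference -0.46 ± 0.10 (SE), edgeR adjusted p = 0.0015). PLK2, a kinase known as a p53 target, was at 376, 434 and 389 CPM in vector Dox and 16.7, 19.0 and 18.5 in JUN EtOH, and of 16 p53 targets 7 were higher in vector Dox and 4 in JUN EtOH. Cholesterol synthesis genes were higher in vector Dox in 10 of 16 cases and in JUN EtOH in 2. Without vector Dox replicate 2 these counts were 7 and 3. HMGCS1, an early enzyme of the pathway, was at 251, 294 and 196 CPM in vector Dox against 129, 129 and 102 in JUN EtOH.

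Of 10 genes of the insulin-like growth factor axis 6 were higher in JUN EtOH and 4 in vector Dox. IRS1, the adaptor of the insulin and IGF1 receptors, was at 78.9, 133 and 111 CPM in vector Dox against 6.34, 5.82 and 8.17 in JUN EtOH, with vector EtOH at 10.6, 6.14 and 9.51 (log2 difference between the states -3.99 ± 0.22 (SE), edgeR adjusted p = 2.4e-09). IGFBP4 and IGFBP6 were higher in JUN EtOH by 2.28 ± 0.17 and 1.78 ± 0.18 log2 units (SE). Of 16 actin cytoskeleton genes 3 were higher in JUN EtOH and 5 in vector Dox, with TPM1 (tropomyosin 1) at 149, 116 and 119 CPM in vector Dox and 34.1, 32.7 and 33.5 in JUN EtOH and TPM4 higher in JUN EtOH by 0.79 ± 0.10 log2 units.

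Genes of the low-oxygen response were higher in JUN EtOH in 11 of 18 cases and lower in 3, with a median of 0.54. VEGFA, the angiogenic growth factor, was at 246, 182 and 183 CPM in JUN EtOH, 29.4, 31.0 and 28.8 in vector Dox and 53.8, 43.1 and 44.5 in vector EtOH. DDIT4, an inhibitor of mTORC1, was at 724, 788 and 569 CPM in JUN EtOH, 705, 774 and 693 in vector EtOH and 150.0, 172 and 137 in vector Dox. ADM (adrenomedullin) was opposite, at 444, 272 and 327 CPM in vector Dox against 28.5, 23.5 and 24.0 in JUN EtOH, with vector EtOH at 6.24, 6.79 and 7.63. Of 17 glycolytic genes 3 were higher in JUN EtOH and 4 in vector Dox.

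Interferon-response genes were higher in JUN EtOH in 11 of 22 cases and lower in 2, but without vector Dox replicate 3 only 5 were higher. Below vector EtOH were 9 of the list in vector Dox. IRF9, a subunit of the interferon-activated factor ISGF3, was at 9.99, 13.5 and 11.7 CPM against 4.14, 2.79 and 2.19, and IFIT3, an antiviral protein that shares span with LIPA, at 16.5, 15.3 and 15.5 against 6.15, 6.35 and 8.01. Of 15 targets of NRF2, the regulator of the oxidative stress response, 6 were higher in JUN EtOH and 3 in vector Dox (1 without JUN EtOH replicate 1). AKR1C1, a steroid and aldehyde reductase, was at 127, 116 and 119 CPM in JUN EtOH, 32.7, 28.1 and 32.6 in vector Dox and 63.9, 69.3 and 72.1 in vector EtOH. Amino acid response genes were higher in vector Dox in 7 of 15 cases, and CEBPB, a bZIP factor, was 1 of 2 higher in JUN EtOH, at 538, 575 and 551 CPM in JUN EtOH, 528, 546 and 486 in vector EtOH and 177, 165 and 155 in vector Dox.

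Of 11 prostaglandin genes 4 were higher in JUN EtOH and 4 in vector Dox. PTGES, which makes prostaglandin E2, was at 890.0, 933 and 1031 CPM in JUN EtOH and 188, 212 and 242 in vector Dox, and PTGS2 (COX-2) at 21.3, 13.7 and 12.2 and 5.93, 5.09 and 4.54, while the receptor PTGER4, which shares span with TTC33, was higher in vector Dox (log2 difference -1.97 ± 0.17, SE). In retinoid metabolism 6 of 11 genes were higher in JUN EtOH and 1 in vector Dox; STRA6, a retinol importer, was higher by 3.47 ± 0.26 log2 units and CYP26B1, which degrades retinoic acid, by 2.09 ± 0.11. Of 11 ion transport genes 4 were higher in JUN EtOH and 2 in vector Dox. SCNN1G, a subunit of the epithelial sodium channel, was at 23.9, 35.3 and 20.4 CPM in JUN EtOH, 3.27, 4.42 and 1.98 in vector Dox and 64.1, 64.3 and 57.2 in vector EtOH, so that it was below the reference in both states. In squamous differentiation 7 of 13 genes were higher in JUN EtOH and 3 in vector Dox, among the former IVL (involucrin) at 1.41, 0.843 and 1.60 CPM against 0.174, 0.225 and 0.165, and TGM1, the envelope cross-linking enzyme, was opposite, at 49.7, 49.9 and 46.7 CPM in vector Dox and 9.20, 12.01 and 10.1 in JUN EtOH. Of 6 connexins 3 were higher in JUN EtOH and 1, GJA5, in vector Dox, with GJB2 (connexin 26) at 37.4, 35.5 and 34.2 CPM in JUN EtOH and 14.8, 14.0 and 16.6 in vector Dox.

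A few genes shifted alike from the reference in both states. They were picked for this pattern by a rule on these same values, and are given as a description. ETNK2, an ethanolamine kinase, was at 30.2, 41.9 and 38.2 CPM in vector EtOH, 3.96, 5.52 and 4.60 in JUN EtOH and 3.88, 6.31 and 5.82 in vector Dox, and ADGRG1 (GPR56), an adhesion receptor, at 37.4, 38.7 and 36.0, 7.17, 7.59 and 7.46 and 5.49, 8.29 and 6.86. TMEM63C, which shares span with CIPC, and CCNA1 (cyclin A1) were lower than the reference in both states, with 95% intervals of the difference between the states of -0.68 to 0.30 and -0.64 to 0.22 log2 units. PDCD1LG2 (PD-L2) was higher in both, at 17.6, 13.2 and 15.9 CPM in JUN EtOH and 15.6, 15.3 and 15.3 in vector Dox against 4.87, 4.09 and 4.17 in vector EtOH. CCBE1 was also higher in both, but its small difference between the states (-0.34 ± 0.13 (SE), edgeR adjusted p = 0.039) lost its call in most of the other settings tried. Genes that moved apart from the reference in opposite directions, picked the same way, were ANKRD1 and ANKRD2 on the YAP5SA side and SOCS1, TREM1 and the overlapping pair DEPP1 and RASSF4 on the JUN side. RASSF4, a RAS-association domain protein, was at 12.02, 12.7 and 9.57 CPM in JUN EtOH, 2.36, 1.95 and 1.03 in vector EtOH and 0.349, 0.496 and 0.330 in vector Dox.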

How the data were processed

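RNA of 12 MCF10A libraries, 3 biological replicates per group, had been selected for poly(A) and sequenced single-end by the study. The authors trimmed reads with Cutadapt (4.2 in the submitters' processing notes), aligned them to hg19 with Bowtie2 (2.3.5.1 in those notes, whereas the study's methods name another version), which does not split reads over splice junctions, counted overlaps with genes and deposited raw counts per Entrez gene; annotation and strand were not given in the sources used here. The authors tested with DESeq2. Here 23459 gene IDs were matched to RefSeq symbols (151 had none), and 14775 genes passed edgeR's filterByExpr (minimum count 10, total 15).

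Counts of the 12 libraries were fitted in 1 model by edgeR 4.0.16 (R 4.3.3; TMM factors, robust quasi-likelihood test, common biological coefficient of variation 12.5%) with Benjamini-Hochberg adjustment over all genes, and genes were called at an adjusted p under 0.05. Levels are CPM on TMM-scaled library sizes. A group at or under 3 counts in each library was taken as undetected, which corresponds to 0.107 to 0.150 CPM, and floors cover counting error only. Intervals are 95%. The fit was tested on simulated data.

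Named genes were the study's plotted genes, the 12 highest and 12 lowest called ratios without overlap and a mean of at least 5 CPM, up to 4 called members at each end of each list, and 6 genes each that moved alike or apart. IL1A, IL1R1, LAMA3 and PKP2 were added for their role after their values were seen. Members and lists were chosen with earlier results of these data known. Alternatives covered DESeq2 1.42.0, other scalings and filters, GC content, a replicate block, other sets of libraries and each library left out. A few genes that entered the fits and counts are not reported here.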

Additional observations from a re-analysis of the deposited data

How the results depend on the processing

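Depth limits low genes, and calls relative to vector EtOH depended more on single libraries than those between the states. Testing against an absolute log2 difference of 1 left 1114 calls between JUN EtOH and vector Dox, 795 higher and 319 lower, which puts 71.4% of them on the JUN side against 49.4% by the test against 0; it left 485 in JUN EtOH against vector EtOH (344 higher, 141 lower) and 383 in vector Dox against vector EtOH (163 higher, 220 lower). By its construction this test asks for a larger difference. With 1 library left out, the calls between the states ranged from 6727 to 8020 (higher 3370 to 4048, lower 3357 to 3997). Those of JUN EtOH against vector EtOH ranged from 3823 to 5231 (higher 2081 to 2759, lower 1742 to 2472), the lowest values coming without JUN EtOH replicate 1. Those of vector Dox against vector EtOH ranged from 3326 to 4276 (higher 1609 to 2128, lower 1717 to 2148). DESeq2 called 8179, 6060 and 4713 genes in the 3 comparisons.

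With the replicate number as a block the calls were 8138, 5871 and 4588, and with the block and a GC correction 8319, 5974 and 4744. The numbers were not taken as pairs, because the groups differed in this. Deviations of same-numbered libraries of vector Dox and JUN EtOH correlated at -0.087, -0.090 and 0.143 over genes. For vector EtOH and vector Dox the values were -0.230, -0.258 and 0.106. Between vector EtOH and JUN EtOH they were 0.153, 0.0825 and 0.0743, and there each library correlated best with its own number. A weak effect of the replicate number is therefore not excluded. Other scalings, filters and sets of libraries kept each count within 1.5 times. Of 273 named genes none that was called, in the main fit or in the setting, changed direction in any setting. A change of sign in a gene called in neither, such as could occur for YAP1, was not counted. In some setting other than the test against a log2 difference of 1, 13 lost their call, and 112 lost it under that test. Among the former, CCBE1, TEK and MXD3 are named above, each with this limit.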

Other observations

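The JUN Dox libraries, in which both manipulations were combined, entered no comparison, and their levels for the genes that told the states apart were as follows. Of the YAP5SA-side genes, CCN1 was at 1077, 1071 and 1068 CPM in JUN Dox replicates 1 to 3 (vector Dox 1895 ± 88.6, JUN EtOH 61.5 ± 2.72; SD, n = 3), and THBS1 at 92.8, 99.1 and 110.0 (vector Dox 1340.4 ± 194, JUN EtOH 27.3 ± 2.13). ANKRD1 was at 0.251, 0.216 and 0.249 CPM (vector Dox 10.53 ± 1.03), IRS1 at 47.0, 41.9 and 48.4 (vector Dox 108 ± 27.2) and IGFBP3 at 131, 71.3 and 70.6 (vector Dox 83.9 ± 15.6). IL7R was at 3.86, 3.89 and 3.59 CPM, where vector Dox was at 38.0 ± 7.17 and JUN EtOH at 3.45 ± 0.482.

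Of the JUN-side genes, IL1B was at 1075, 1032 and 1023 CPM in JUN Dox (JUN EtOH 901 ± 138, vector Dox 49.3 ± 3.34) and FN1 at 278, 256 and 198 (JUN EtOH 354 ± 58.5). CXCL2 was at 256, 158 and 137 CPM and SERPINB2, a plasminogen activator inhibitor, at 64.8, 57.2 and 55.1, against 76.7 ± 21.1 and 18.7 ± 3.07 in JUN EtOH and 8.68 ± 4.35 and 1.33 ± 0.329 in vector Dox. CYP1B1 was at 89.0, 88.2 and 91.5 CPM (JUN EtOH 405 ± 22.3, vector Dox 10.8 ± 2.92), MEFV at 0.552, 0.692 and 0.391 (JUN EtOH 8.57 ± 0.750, vector Dox 0.160 ± 0.0567) and DDIT4 at 149, 166 and 110.2 (JUN EtOH 694 ± 113, vector Dox 153 ± 18.1). ADAMTS1, which JUN EtOH left near its vector EtOH level, was at 62.0, 42.6 and 48.0 CPM in JUN Dox and 16.5 ± 1.29 in vector Dox. No test was made on these libraries.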
